A study of Fragaria vesca with 12 samples.

Results

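The 8 genes described here are those of the strawberry m6A machinery whose RNA and m6A peaks were followed in fruit of the Fvalkbh10b mutant and of the wild type (WT). They were taken by gene identifier from the 21927 genes of the expression table. They comprise 3 writer genes, 3 YTH domain reader genes and 2 genes of a cleavage factor subunit. The plants were diploid strawberry, Fragaria vesca, and fruit was taken 27 days post anthesis in both genotypes. The 12 samples formed 4 groups of 3 biological replicates. These were input RNA of Fvalkbh10b, anti-m6A immunoprecipitated RNA (IP) of Fvalkbh10b, input RNA of WT and IP of WT. The labels give the mutant by its genotype name, and its allele, the number of lines and how they were made are not stated there.

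N6-methyladenosine (m6A) is a methyl mark on adenosines inside mRNA. It is placed by a writer complex, removed by erasers of the AlkB family, to which ALKBH10B belongs, and bound by readers that carry a YTH domain. In plants the writer has a catalytic subunit of the MT-A70 family (MTA in Arabidopsis, METTL3 in mammals), a second methyltransferase-like subunit (MTB in Arabidopsis, METTL14 in mammals) and a scaffold, FIP37, the plant counterpart of mammalian WTAP. YTH readers of the cytoplasm affect the stability and translation of marked mRNA. CG7185 is the Drosophila name of the large subunit of cleavage factor Im, which binds pre-mRNA upstream of the poly(A) site and affects where the 3′ end is cut.

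The input values were FPKM, a count of fragments divided by gene length and by library size. Because of the scaling to length, levels of different genes can be set side by side. Read numbers behind the FPKM are unknown. As a check of the genotype labels, FvH4_2g24110, annotated with RNA N6-methyladenosine dioxygenase activity, was at 3.75, 3.84 and 5.34 FPKM in Fvalkbh10b and 30.27, 28.53 and 31.03 FPKM in WT. No description names ALKBH10B, so whether this is the mutated gene is not given. Of the 15571 genes that averaged 1 FPKM or more, 48.3% passed limma's test (adjusted p under 0.05, Benjamini-Hochberg) as higher in Fvalkbh10b and 19.1% as lower. The median log2 change over these genes was 0.25. The median FPKM of tested genes was 9.37 to 9.56 in Fvalkbh10b libraries and 7.66 to 7.82 in WT libraries, so part of any small rise is shared by the whole library. One gene, FvH4_3g20030, held at least 20.4% of all FPKM in Fvalkbh10b libraries and at most 12.3% in WT libraries. Changes are therefore given as deposited and set beside those with libraries rescaled. For FvH4_5g11050 and FvH4_1g22240 the change relative to the median of all genes is also given.

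Of the 8 genes, 5 passed the test as higher in Fvalkbh10b, 0 as lower, and 3 did not pass. Their median log2 change of 0.23 was close to the 0.25 of all tested genes. The YTH family protein 2-like gene FvH4_3g45840 stood apart in size. It was about 2-fold higher in the mutant, while the other 7 changes lay between -0.05 and 0.34 on the log2 scale. In 6 of the 8 genes all Fvalkbh10b libraries were above all WT libraries, a pattern seen in 50.9% of all tested genes, and in 0 of the 8 all were below, as in 20.5% of all tested genes.

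**Figure D1:**
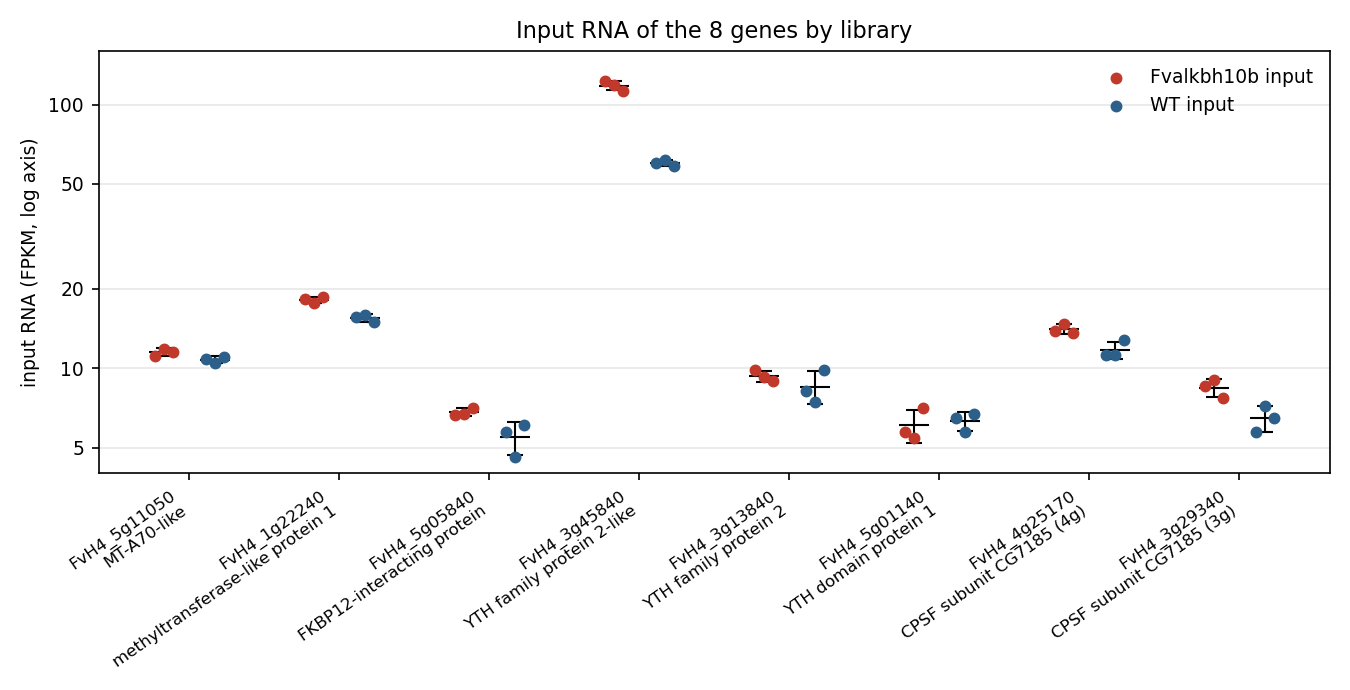
Input RNA of the 8 genes (FPKM, log axis) in each of 3 Fvalkbh10b libraries (red, left) and 3 WT libraries (blue, right), with the mean and SD as black bars. FvH4_3g45840 is the most abundant of the 8 in both genotypes, at 118 FPKM in Fvalkbh10b and 59.9 FPKM in WT.

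The catalytic writer gene FvH4_5g11050, described as N6-adenosine-methyltransferase MT-A70-like, lies on chromosome 5 from 6235452 to 6239568 on the minus strand. Its input RNA was 11.12, 11.87 and 11.57 FPKM in Fvalkbh10b and 10.86, 10.43 and 11.04 FPKM in WT. The mutant libraries were all above the WT libraries, but the gap between the nearest libraries was small. Means were 11.5 ± 0.377 FPKM in Fvalkbh10b and 10.8 ± 0.313 FPKM in WT (SD, n = 3 each). Its log2 change of 0.09 (SE 0.07, limma adjusted p = 0.312) did not pass. It lay 0.16 below the median of all genes (-0.16), and the sign turned when libraries were scaled to one sum, one median or one distribution, with log2 changes of -0.03, -0.17 and -0.14.

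The second writer subunit, methyltransferase-like protein 1 (FvH4_1g22240, chromosome 1, 14151083 to 14156669, minus strand), was the most abundant writer gene. It was at 18.33, 17.68 and 18.58 FPKM in Fvalkbh10b and 15.63, 15.94 and 14.97 FPKM in WT. The libraries of the genotypes did not overlap. Means were 18.2 ± 0.465 FPKM in Fvalkbh10b and 15.5 ± 0.495 FPKM in WT (SD, n = 3 each), a log2 change of 0.22 (SE 0.06, limma adjusted p = 0.0127). The call was kept with any library left out. Relative to the median of all genes the change was -0.03, and with libraries scaled to one median it was -0.05 and no longer passed (limma adjusted p = 0.523).

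The scaffold gene FvH4_5g05840, described as an FKBP12-interacting protein and named for the FIP37 class, lies on chromosome 5 from 3444894 to 3449417 on the plus strand. It was at 6.66, 6.73 and 7.07 FPKM in Fvalkbh10b and 5.71, 4.61 and 6.11 FPKM in WT. The genotypes did not overlap, and the WT libraries varied more than the mutant ones. Means were 6.82 ± 0.219 FPKM in Fvalkbh10b and 5.48 ± 0.777 FPKM in WT (SD, n = 3 each). The log2 change was 0.28 (SE 0.11, limma adjusted p = 0.0493), at the edge of the threshold. It stayed past the threshold when WT replicate 3 was left out and did not pass in the other 5 fits with a library left out, where adjusted p reached 0.171. Under quantile normalization the log2 change was -0.02.

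The reader FvH4_3g45840, described as YTH domain-containing family protein 2-like, lies on chromosome 3 from 38016374 to 38020905 on the plus strand. YTH domain family proteins bind m6A in the cytoplasm in mammals, and their plant relatives form the ECT family. Its input RNA was 122.44, 118.84 and 112.76 FPKM in Fvalkbh10b and 59.89, 61.40 and 58.33 FPKM in WT. Every mutant library was far above every WT library. Means were 118 ± 4.89 FPKM in Fvalkbh10b and 59.9 ± 1.54 FPKM in WT (SD, n = 3 each), a ratio of 1.97. The log2 change was 0.97 (SE 0.05, limma adjusted p = 4.93e-08), larger than the changes of 85.2% of tested genes. The gene rose under each of the 4 scalings, with a log2 change of 0.69 to 0.97, and with any library left out (at least 0.94). Ranked by level among all tested genes, it was at the 96.5 percentile in Fvalkbh10b and the 92.1 percentile in WT.

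The other two readers did not pass the test. YTH family protein 2 (FvH4_3g13840, chromosome 3, 8289863 to 8294236, plus strand) was at 9.83, 9.27 and 8.94 FPKM in Fvalkbh10b and 8.23, 7.47 and 9.88 FPKM in WT. WT replicate 3 was above all mutant libraries. Its log2 change was 0.13 (SE 0.11, limma adjusted p = 0.314), with a sign that turned when libraries were scaled to one median or one distribution. With one library left out it ran between 0.045 without WT replicate 2 and 0.23 without WT replicate 3. The 3′ end of this gene overlaps the nuclear-pore anchor gene FvH4_3g13850, on the opposite strand, by 1099 bp. The labels do not say whether reads were counted by strand, so the part of its signal in that stretch is uncertain.

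YTH domain-containing protein 1 (FvH4_5g01140, chromosome 5, 695988 to 701749, minus strand) carries the name of the nuclear reader of mammals. It was at 5.75, 5.42 and 7.06 FPKM in Fvalkbh10b and 6.46, 5.71 and 6.71 FPKM in WT. The libraries overlapped, and mutant replicate 3 was the highest of all 6. Its log2 change was -0.05 (SE 0.12, limma adjusted p = 0.729), the one value below 0 among the 8 genes. It passed as lower with libraries scaled to one median (-0.29, limma adjusted p = 0.0469) and under quantile normalization (-0.34, limma adjusted p = 0.0243), and did not pass with libraries scaled to one sum.

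Both genes described as subunit CG7185 passed the test as deposited. Genes described as subunit 6 are not among the 8, and 1 of them, FvH4_2g01740, fell, as given below. FvH4_4g25170 (chromosome 4, 27029943 to 27034335, minus strand) was at 13.88, 14.74 and 13.65 FPKM in Fvalkbh10b and 11.25, 11.25 and 12.76 FPKM in WT. The genotypes did not overlap, and the WT library nearest to the mutant was replicate 3. The log2 change was 0.24 (SE 0.08, limma adjusted p = 0.0197), and it no longer passed without Fvalkbh10b replicate 2, WT replicate 1 or WT replicate 2, with adjusted p up to 0.069. Scaled to one median, it was -0.02. FvH4_4g25160, a related subunit 6-like gene, lies 1983 bp away on the same strand, and close copies may share reads.

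FvH4_3g29340 (chromosome 3, 22433528 to 22438787, plus strand) had the lower level of the pair. It was at 8.58, 9.01 and 7.70 FPKM in Fvalkbh10b and 5.75, 7.21 and 6.47 FPKM in WT. No WT library reached the lowest mutant library. The log2 change was 0.34 (SE 0.11, limma adjusted p = 0.0173), the second largest of the 8. It did not pass without Fvalkbh10b replicate 1, Fvalkbh10b replicate 2 or WT replicate 1, where adjusted p was at most 0.0646, and it did not pass under the other 3 scalings.

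Counted over scalings, the 5 calls as deposited fell to 1 with libraries scaled to one sum, one median or one distribution, FvH4_3g45840 in each case. Over all tested genes, 39.9% were then higher and 23.8% lower with one sum, 30.8% higher and 32.2% lower with one median, and 31.3% higher and 29.7% lower under quantile normalization. In the authors' deposited table FvH4_3g45840 had a log2 change of 0.98 and a p and q listed as 0, and none of the 8 genes was marked significant, a mark the table gives to changes of at least 2-fold (23.5% of all genes). The authors' deposited p is not centred on 0, since its genes with p over 0.9 and a mean from 5 FPKM upwards had log2 changes of 0.25 to 0.34. FvH4_5g01140, at -0.05, thus has a q of 0.03 in the authors' deposited table, while FvH4_5g05840, at 0.32, has a q of 0.84.

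**Figure D2:**
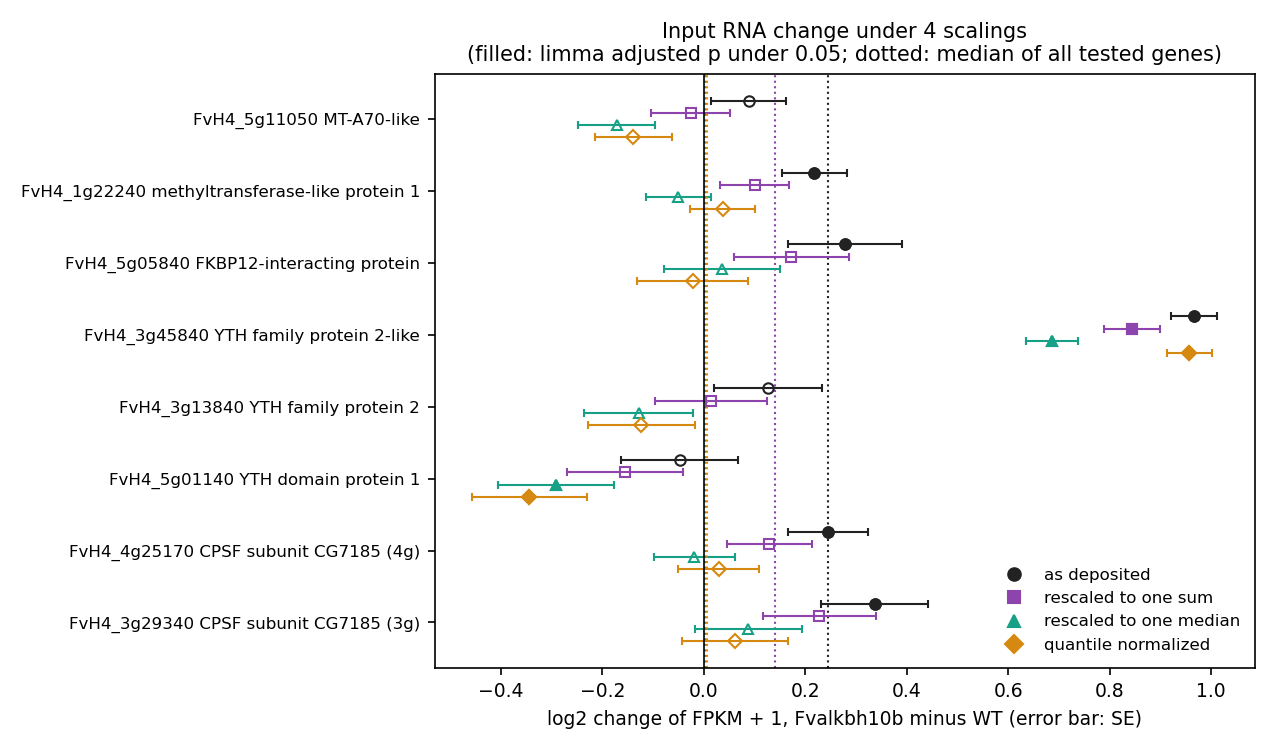
Log2 change of input FPKM + 1, Fvalkbh10b minus WT, for the 8 genes under 4 scalings of the libraries, with SE bars. Filled symbols passed limma's test at adjusted p under 0.05 and dotted lines mark the median of all tested genes. FvH4_3g45840 is filled under all 4, at 0.69 to 0.97.

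The order of the 8 genes by level was nearly the same in both genotypes. FvH4_3g45840 was highest, followed by FvH4_1g22240, FvH4_4g25170, FvH4_5g11050 and FvH4_3g13840. In Fvalkbh10b the libraries of FvH4_3g13840 and FvH4_3g29340 overlapped, as did those of the lowest pair, FvH4_5g05840 and FvH4_5g01140. In WT the overlap was among the lowest genes, FvH4_3g29340, FvH4_5g01140 and FvH4_5g05840.

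Ratios of genes within a library are left unchanged by a single scaling factor per library (quantile normalization can change them), and 6 were computed. The summed FPKM of the YTH genes over that of the writer genes was 3.82, 3.68 and 3.46 in Fvalkbh10b and 2.32, 2.41 and 2.33 in WT. All mutant libraries were above all WT libraries. The log2 difference was 0.63 (exact permutation test, two-sided, p = 0.1, the smallest that 3 against 3 libraries can give, and 0.2 after Benjamini-Hochberg adjustment over the 6 ratios). The sum of the 3 YTH genes was 133 ± 4.63 FPKM in Fvalkbh10b and 74.7 ± 0.196 FPKM in WT, and that of the 3 writer genes was 36.5 ± 0.598 FPKM in Fvalkbh10b and 31.8 ± 0.682 FPKM in WT (SD, n = 3 each). YTH 2-like supplied 88.7%, 89.0% and 87.6% of the YTH sum in Fvalkbh10b and 80.3%, 82.3% and 77.9% in WT. Without it, YTH 2 and YTH domain protein 1 summed to 15.4 ± 0.669 FPKM in Fvalkbh10b and 14.8 ± 1.71 FPKM in WT.

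Between the readers, YTH 2-like over YTH 2 was 12.5, 12.8 and 12.6 in Fvalkbh10b and 7.28, 8.22 and 5.90 in WT. The mutant values were close together and all above WT. The log2 difference was 0.84 (exact permutation p = 0.1, adjusted 0.2). Among the writers, MT-A70-like over methyltransferase-like protein 1 was 0.634 ± 0.0337 in Fvalkbh10b and 0.696 ± 0.0416 in WT (SD, n = 3 each), and the libraries overlapped (exact permutation p = 0.2, adjusted 0.3). FKBP12-interacting protein over MT-A70-like was 0.592 ± 0.0228 in Fvalkbh10b and 0.507 ± 0.0580 in WT, without overlap (exact permutation p = 0.1, adjusted 0.2). The log2 difference of 0.23 was 0.13 without WT replicate 2. The same gene over methyltransferase-like protein 1 overlapped, at 0.375 ± 0.00996 in Fvalkbh10b and 0.354 ± 0.0602 in WT (exact permutation p = 0.8), and its log2 difference of 0.10 was -0.043 without WT replicate 2. FvH4_3g29340 over FvH4_4g25170 was 0.598 ± 0.0294 in Fvalkbh10b and 0.553 ± 0.0761 in WT, also with overlap (exact permutation p = 0.4), and its log2 difference of 0.12 ran between 0.062 without WT replicate 3 and 0.23 without WT replicate 2, with 0.067 without WT replicate 1.

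**Figure D3:**
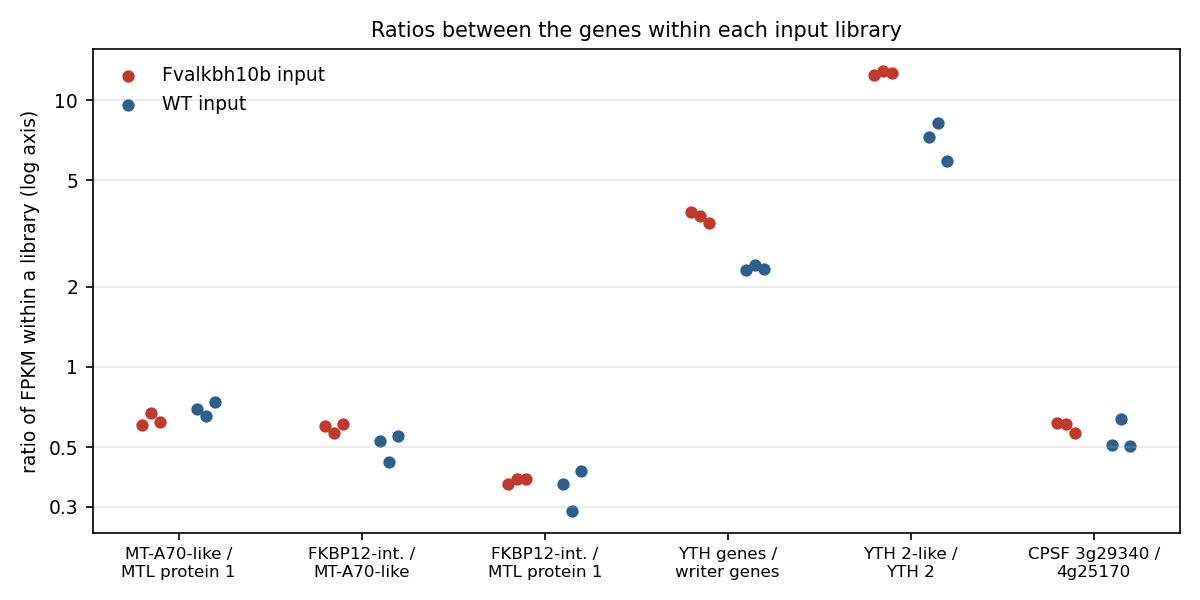
Ratios of input FPKM between the genes within each library (log axis), for 3 Fvalkbh10b libraries (red, left) and 3 WT libraries (blue, right). The YTH genes over the writer genes and YTH 2-like over YTH 2 have mutant values well above all WT values, at means of 3.65 in Fvalkbh10b against 2.35 in WT and 12.6 in Fvalkbh10b against 7.13 in WT. YTH 2-like makes up most of the YTH sum in every library.

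Markers of fruit tissues also differed between the libraries. Green tissue markers (photosystem, chlorophyll-binding and plastocyanin genes) summed to 3038 to 3238 FPKM in Fvalkbh10b and 290 to 304 FPKM in WT, and all 31 tested of 38 rose, with 1 of the 38 at 0 in all mutant libraries and 5 at 0 in all WT libraries. Ripe receptacle markers (pigment synthesis and cell wall genes) summed to 2207 to 2269 FPKM in Fvalkbh10b and 10973 to 11280 FPKM in WT. They were taken by the words anthocyanidin, chalcone synthase, pectate lyase, polygalacturonase and expansin. Genes described as anthocyanidin reductase or leucoanthocyanidin reductase also entered by these words, and some of them rose and others fell. Of 105 listed, 52 were tested, 16 rose and 29 fell, and 13 were at 0 in all mutant libraries and 20 in all WT libraries. Achene and seed markers summed to 503 to 537 FPKM in Fvalkbh10b and 720 to 734 FPKM in WT, with 9 of 25 tested higher and 13 lower, and 2 and 3 of the 40 listed at 0 in all Fvalkbh10b and all WT libraries. A single seed storage gene, FvH4_5g29270, made up most of the gap between these sums. It was at 0.06, 0.00 and 0.22 FPKM in Fvalkbh10b and 196.65, 191.81 and 194.52 FPKM in WT. A chloroplast plastoglobulin gene, called higher, also entered this list by the word globulin. Vascular markers summed to 93.5 to 95.9 FPKM in Fvalkbh10b and 53.1 to 58.4 FPKM in WT, with 8 of 10 tested higher and 1 lower, and 5 and 9 of the 36 listed at 0 in all Fvalkbh10b and all WT libraries. Their part in the rise of FvH4_3g45840 was not tested, and in bulk fruit fewer cells of a type and less RNA per cell cannot be told apart.

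Likeness over the 6 input libraries was measured as Pearson's r of log2(FPKM + 1) with every tested gene, as a description. For FvH4_3g45840 the 3 highest were FvH4_4g21180 (methyltransferase-like protein 13), FvH4_7g16280 (DEAD-box RNA helicase 31-like) and FvH4_2g34900 (serine carboxypeptidase II-3-like), all above 0.99, and 1255 genes were over 0.99. For FvH4_5g11050 the 3 highest were FvH4_6g44105 (a putative kinase, 0.995), FvH4_4g25610 (codeinone reductase 2-like, 0.993) and FvH4_3g24340 (D6PK-like kinase, 0.991), and 4 genes were over 0.99. The 6 libraries form 2 genotype clusters, and all these r share that split.

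The peaks were taken from the authors' lists, 1 per genotype, with 24868 entries for Fvalkbh10b and 23966 for WT. The log2 of IP over input is the authors' value for each peak, with no replicate values. Of the 8 genes, 7 had a peak in each list and FvH4_3g45840 had none in either. The 7 genes had 14 peaks in Fvalkbh10b and 13 in WT. In Fvalkbh10b, 11 were classed by the authors as 3′ UTR, 1 as exonic and 2 as 5′ UTR. In WT, 8 were 3′ UTR, 3 exonic and 2 5′ UTR. Peaks of the genes had a median log2 of 2.81 in Fvalkbh10b and 2.46 in WT, against 2.39 and 2.28 over the whole Fvalkbh10b and WT lists. The whole lists hold a smaller share of 3′ UTR peaks, with 13597 entries in Fvalkbh10b and 13055 in WT. The median of these 3′ UTR entries was 3.06 in Fvalkbh10b and 3.01 in WT, and that of exonic entries 1.5 and 1.32. The higher median of the genes is thus not a comparison within 1 region class. Of the 14 mutant peaks 12 overlapped a WT peak, and 10 of 13 in WT overlapped one of the mutant. Over whole lists the shares were 79.3% of Fvalkbh10b peaks and 82.3% of WT peaks.

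Among the writers, the MT-A70-like gene carried a broad exonic peak and peaks at the 3′ end. The exonic peak covered chromosome 5, 6237367 to 6239268 (log2 2.72), in Fvalkbh10b and 6237392 to 6239243 (log2 2.33) in WT. At the 3′ UTR the mutant list had peaks at 6235452 to 6235601 (3.09) and 6235627 to 6235826 (1.83), and the WT list had 1 peak over both, 6235452 to 6235851 (2.23). Methyltransferase-like protein 1 had a 3′ UTR peak of log2 3.58 in Fvalkbh10b and 3.49 in WT. It also had a 5′ UTR-classed peak of log2 3.13 in Fvalkbh10b (chromosome 1, 14153956 to 14156005) and 2.91 in WT (14154081 to 14156030). These lay at the 96.4 and 96.1 percentile of 5′ UTR peaks of the Fvalkbh10b and WT lists. They were 2050 and 1950 bp long, against medians of 400 and 425 bp for 5′ UTR-classed peaks of the same lists. Their midpoints lay 30.2% and 28.9% of the way along the gene span, counted with introns. A short 5′ UTR peak (14156456 to 14156580, log2 1.86) was listed in Fvalkbh10b alone. FKBP12-interacting protein shared a 3′ UTR peak at chromosome 5, 3448866 to 3449415, with a log2 of 3.86 in Fvalkbh10b and 3.98 in WT. Its exonic peak at 3445312 to 3445845 (log2 0.74) was listed in WT alone.

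Among the readers, YTH domain protein 1 had the strongest peak of the 8 genes. Its 3′ UTR peak at chromosome 5, 695988 to 696566, had a log2 of 5.29 in Fvalkbh10b and 5.32 in WT, at the 99.2 percentile of 3′ UTR peaks in both lists. A weak exonic peak (698117 to 698241, log2 1.33) was listed in WT alone. YTH 2 had 1 peak, at chromosome 3, 8293566 to 8294236, with a log2 of 2.90 in Fvalkbh10b and 3.13 in WT. It lies where the nuclear-pore anchor gene overlaps on the other strand, and that gene had its own listed peaks inside the same gene span, with a log2 of 4.02 in Fvalkbh10b and of 2.66 and 3.81 in WT.

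FvH4_3g45840, the reader with the largest change in input RNA, had no listed peak, and no peak of any other gene lay over its locus in either list. Of the 1483 tested genes with a mean within 2-fold of its own (44.5 to 177 FPKM), 174 (11.7%) were in neither list. Among all tested genes this was 12.8%. The 2-fold band was chosen after the values were seen. A gene without a listed peak is below the authors' calling criteria, which the labels and headers do not state.

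Of the cleavage factor genes, FvH4_4g25170 had in Fvalkbh10b 3 peaks classed as 3′ UTR, at chromosome 4, 27029993 to 27030242 (2.43), 27030268 to 27030442 (2.19) and 27031443 to 27032692 (2.25). In WT it had 27030043 to 27030442 (2.71) and 27031418 to 27032692 (2.13), plus a weak 5′ UTR peak (27033368 to 27033567, 0.79) that was listed in WT alone. FvH4_3g29340 had a broad peak in both lists, at chromosome 3, 22433928 to 22435927 (2.66) in Fvalkbh10b and 22434028 to 22435927 (2.46) in WT. Its midpoint lay 26.6% and 27.6% of the way along the gene span, counted with introns, in Fvalkbh10b and WT, although the authors class it as 3′ UTR. A midpoint before the middle of the gene span was found for 4.08% of the 3′ UTR-classed peaks with a usable span in Fvalkbh10b and 4.03% in WT. A second peak (22438334 to 22438483, 3.03) was listed in Fvalkbh10b alone.

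**Figure D4:**
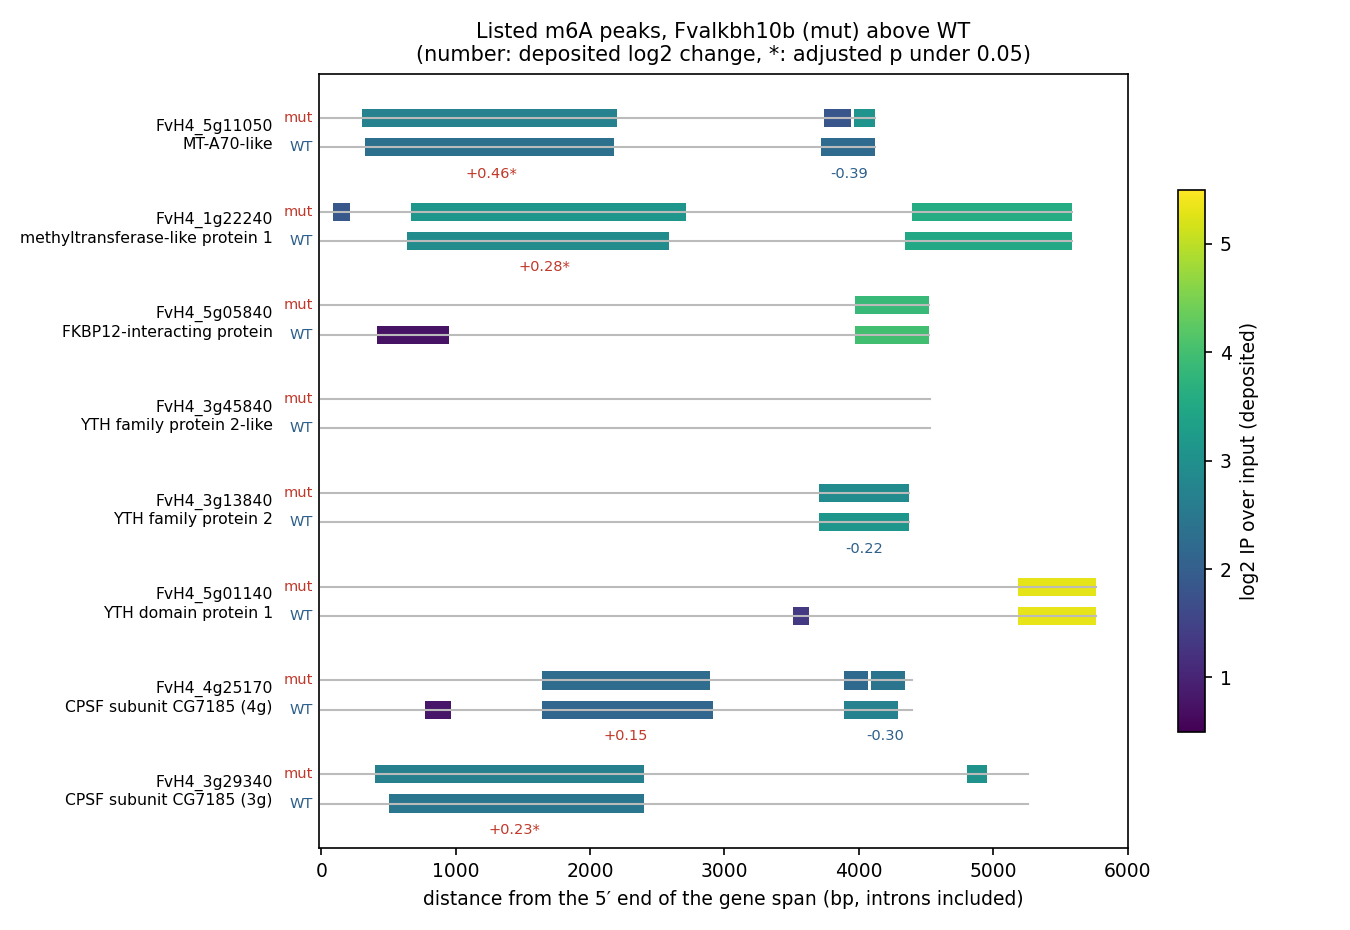
Listed m6A peaks along the 8 genes, drawn from the 5′ end of each gene span (bp), with Fvalkbh10b (mut) above WT and colour for the deposited log2 of IP over input. Numbers give the deposited log2 change of the 7 differential entries and an asterisk marks adjusted p under 0.05. FvH4_3g45840 has no listed peak, and most peaks lie at the same place in both genotypes.

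The differential peak table of the authors lists 8889 entries, with p of at most 0.05. Of these, 48.7% had an adjusted p under 0.05 as higher in Fvalkbh10b and 21.9% as lower. The 8 genes had 7 entries, and 3 were past that threshold as higher and 0 as lower. In the authors' deposited table the exonic peak of MT-A70-like had a log2 change of 0.46 with an adjusted p listed as 0, the 5′ UTR-classed peak of methyltransferase-like protein 1 had 0.28 with an adjusted p listed as 0, and the broad peak of FvH4_3g29340 had 0.23 with an adjusted p of 0.02. Of all genes with a peak in both lists, 27.1% had such a higher entry and 12.8% a lower one, against 3 and 0 of the 7 genes here. None of the 3 entries reached a log2 change of 1.

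The 4 entries that did not pass in the authors' deposited table were the 3′ UTR peaks of MT-A70-like (-0.39, adjusted p 0.1) and YTH 2 (-0.22, adjusted p 0.11), and the pair of FvH4_4g25170 (-0.30, adjusted p 0.09, and 0.15, adjusted p 0.11). FKBP12-interacting protein and YTH domain protein 1 had no entry, so the table gives no change for their peaks. MT-A70-like and FvH4_4g25170 each had 1 entry above 0 and 1 below 0 in the same gene.

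Position in the gene ran with the sign of the entries. The 4 entries with a midpoint in the first 60% of the gene span were all above 0 and the 3 in the last 10% were all below 0. In all entries of the authors' deposited table, 78.3% of 3019 in the first 60% were above 0 (median log2 change 0.38), against 51.9% of 2447 in the last 10% (median 0.14). Of 403 genes with an entry in each stretch, 37.5% had the first above and the last below 0, 9.68% the reverse, 165 both above and 48 both below. The limits of 60% and 10% were chosen after the values were seen, and no test was made.

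**Figure D5:**
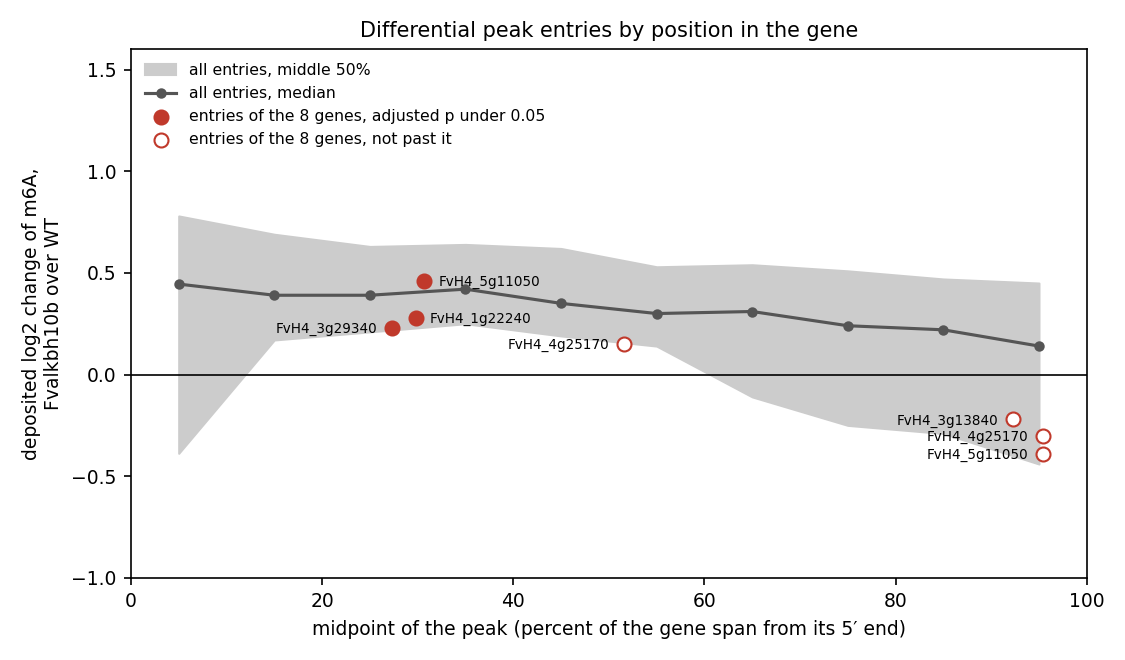
Deposited log2 change of m6A, Fvalkbh10b over WT, by position of the peak midpoint in the gene span (percent from the 5′ end). The line and band give the median and middle 50% of all entries per 10% of the span and circles the 7 entries of the 8 genes, filled where adjusted p was under 0.05. The 4 circles in the first 60% lie above 0 and the 3 in the last 10% below 0.

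The other genes of the pathway were taken from word patterns on the gene descriptions, and FvH4_2g24110 was added to the erasers by its identifier. Of 15 tested genes in the list of other writer genes, 8 rose and 1 fell as deposited, with a median log2 change of 0.27 against 0.25 over all genes, and with libraries scaled to one median 2 rose and 3 fell. Most of this list entered by the words methyltransferase-like protein, and many such proteins do not methylate mRNA. FvH4_4g21180, described as methyltransferase-like protein 13, whose human namesake methylates a translation elongation factor, was at 8.13 ± 0.634 FPKM in Fvalkbh10b and 1.54 ± 0.0945 FPKM in WT (log2 change 1.85, limma adjusted p = 2.88e-07). A mitochondrial methyltransferase-like protein 17 gene, FvH4_5g11440, was at 13.2 ± 0.804 FPKM in Fvalkbh10b and 5.58 ± 0.291 FPKM in WT (1.11, limma adjusted p = 2.14e-06). The gene that fell was FvH4_7g06280, another protein 13 gene, at 3.73 ± 0.531 FPKM in Fvalkbh10b and 6.45 ± 1.10 FPKM in WT (-0.65, limma adjusted p = 0.00208).

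Hakai, an E3 ubiquitin ligase that belongs to the writer complex in Arabidopsis (FvH4_6g12190), was at 17.70, 15.73 and 15.96 FPKM in Fvalkbh10b and 14.14, 13.09 and 13.08 FPKM in WT. The genotypes did not overlap. Its log2 change of 0.27 (limma adjusted p = 0.00874) was close to the median of all genes, and did not pass with libraries scaled to one median (limma adjusted p = 0.938). Hakai had 1 listed peak in Fvalkbh10b and 2 in WT. No gene was found with virilizer in its description, so virilizer was not analysed here.

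The 1 other reader was FvH4_3g09980, the 30-kDa cleavage and polyadenylation factor, which in Arabidopsis has a long form with a YTH domain. It was at 13.03, 12.85 and 12.44 FPKM in Fvalkbh10b and 11.25, 10.05 and 10.39 FPKM in WT, without overlap. Its change was 0.25 on the log2 scale (limma adjusted p = 0.0141) and, with one median, it no longer passed (limma adjusted p = 0.942). It had 5 listed peaks in each genotype, the strongest with a log2 of 3.44 in Fvalkbh10b and 3.01 in WT.

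Of 20 tested genes of 3′ end processing, a list that holds the same 30-kDa gene, 9 rose and 1 fell as deposited, with a median of 0.18, and 6 rose and 6 fell with one median. The smallest adjusted p was that of a nuclear poly(A) polymerase 1-like gene, FvH4_7g04310, at 7.63 ± 0.869 FPKM in Fvalkbh10b and 2.00 ± 0.0608 FPKM in WT (1.52, limma adjusted p = 1.64e-06). Subunit 2 of the cleavage and polyadenylation factor, FvH4_7g29660, was at 21.6 ± 0.393 FPKM in Fvalkbh10b and 14.5 ± 0.145 FPKM in WT (0.54, limma adjusted p = 2.74e-05). The small cleavage factor Im subunit, FvH4_7g29390, the partner of the CG7185 protein in that factor, was at 28.9 ± 1.40 FPKM in Fvalkbh10b and 19.8 ± 2.32 FPKM in WT (0.53, limma adjusted p = 3.56e-04). These 3 also passed with one median. The gene that fell, named after its values were seen, was the subunit 6 gene FvH4_2g01740, at 7.75, 8.07 and 7.86 FPKM in Fvalkbh10b and 12.17, 10.42 and 10.41 FPKM in WT (-0.43, limma adjusted p = 0.00180). FvH4_4g25160, the subunit 6-like neighbour of FvH4_4g25170, also named after its values were seen, was at 11.09, 10.82 and 10.06 FPKM in Fvalkbh10b and 8.89, 8.80 and 8.34 FPKM in WT (0.27, limma adjusted p = 0.0142). It did not pass with one median (limma adjusted p = 0.918).

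Of 7 tested eraser genes of the AlkB class 4 rose and 1 fell as deposited, and 3 rose and 1 fell with one median. The gene that fell was FvH4_2g24110, added by its identifier, with its FPKM given above. Its log2 change was -2.55 (SE 0.11, limma adjusted p = 3.01e-08). Under quantile normalization 1 of the 7 rose and 2 fell. No eraser gene taken by its description fell as deposited or with one median. Those with the next smallest adjusted p were 2 genes described as alkB homolog 8, a class that in mammals modifies tRNA, FvH4_2g25440 (0.70, limma adjusted p = 0.00135) and FvH4_5g24670 (0.63, limma adjusted p = 0.00236). All 7 had a listed peak in both genotypes. So did 14 of 15 other writer genes and 14 of 20 genes of 3′ end processing, beside 7 of the 8 genes above. Of all tested genes, 78.2% had a peak in both lists, 83.2% in the Fvalkbh10b list and 82.2% in the WT list.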

How the data were processed

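Per the labels' protocols, mRNA of fruit was fragmented, part was precipitated with an anti-m6A antibody, and IP and input libraries were sequenced from both ends. FastQC, HISAT2 and StringTie appear in the submitters' processing notes, with no version or role. The sources used here do not give the genome build, peak caller or tests, and coordinates are those of the files. The authors deposited FPKM per gene for the 6 input libraries, with the fold ratio between genotypes, its log2, a p-value and a q-value, per the file headers. The peak tables deposited by the authors hold the log2 IP-to-input ratio, or its log2 change between genotypes, with p-values rounded to 2 decimals. Their starts count from 0 and were raised by 1. No column was left unmapped.

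The 15571 genes that averaged 1 FPKM or more entered a limma fit (version 3.58.1, R 4.3.3) of log2(FPKM + 1) on genotype alone, with a trend of variance on mean. P-values were adjusted by Benjamini-Hochberg over these genes. Because of the added 1, low genes changed by more than their fold on this scale shows. Steps of whole reads were looked for in log2 ratios of low FPKM between replicates 1 and 2 of each genotype. The fullest narrow bin held 3.91% of ratios in Fvalkbh10b and 3.90% in WT. The median of its neighbouring bins was 2.60% in Fvalkbh10b and 2.56% in WT. The depth was not derived from this and is unknown, and no count model was used. The limma fit was tried on simulated data with known changes. Ratios within a library were compared with exact permutation tests in scipy 1.17.1. Overlap of peaks means at least 1 bp on the same strand.

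Named genes are the 8 genes, Hakai, FvH4_2g24110 and, from each list of pathway genes, up to 3 with the smallest adjusted p. FvH4_2g01740, FvH4_4g25160 and FvH4_5g29270 were added outside this rule, after their values were seen. The genes most like 2 members were taken by their correlation. Members and lists were chosen with earlier results of these data known. Alternatives were a pseudocount of 0.1, no filter, 3 other scalings, a replicate block, each library left out, and stricter peak thresholds. Sequences of the genes and peaks were not used here.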

Additional observations from a re-analysis of the deposited data

How the results depend on the processing

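The number of the 8 genes called higher was 5 as deposited and 1 with libraries scaled to one median, one sum or one distribution (quantile normalization). It was 2 to 5 with one library left out, 3 without Fvalkbh10b replicate 1, 2 without Fvalkbh10b replicate 2, 2 without WT replicate 1 and 3 without WT replicate 2. The number called lower was 0 as deposited, 1 with one median or quantile normalization, and 0 with any library left out. Over all tested genes, 7527 higher and 2978 lower as deposited became 6207 and 3699 with one sum, 4800 and 5011 with one median and 4869 and 4625 under quantile normalization. With one library left out they were 6995 to 7151 higher and 2789 to 2880 lower. The log2 change turned sign for FvH4_5g11050 (-0.17 with one median, -0.14 under quantile normalization, -0.026 with one sum), FvH4_1g22240 (-0.050, one median), FvH4_5g05840 (-0.022, quantile), FvH4_3g13840 (-0.13, one median, and -0.12, quantile) and FvH4_4g25170 (-0.019, one median). That of FvH4_5g01140 was -0.15 to 0.02 with one library left out, and 0.019 without Fvalkbh10b replicate 2. Rescaling the libraries also moved the median change over all genes. It went from 0.25 as deposited to 0.14 (one sum), 0.0016 (one median) and 0.0069 (quantile). One median and quantile normalization thus had nearly the same centre, but FvH4_3g45840 was at 0.69 with the first and 0.96 with the second. FvH4_3g13840 was nearly alike in both, at -0.13 and -0.12. How far centring accounts for the turned signs and lost calls was not tested. The call of FvH4_5g05840 was also lost with a pseudocount of 0.1 (limma adjusted p = 0.0528) and without the filter (limma adjusted p = 0.0694). With an absolute log2 change of at least 1 required, 0 of the genes' differential peaks remained higher. Same-numbered libraries did not deviate together (correlations across genes of 0.04, -0.03 and 0.03). Whether same-numbered samples were handled together cannot be told from these correlations. With the replicate block 4 of the 8 genes were higher, FvH4_5g05840 being lost (limma adjusted p = 0.0555), and 7469 genes rose and 2954 fell. FvH4_3g45840 kept its direction and its call under every alternative run. Of the 6 ratios, 5 kept their direction with any library left out and with 1 added to each FPKM. FKBP12-interacting protein over methyltransferase-like protein 1 turned to -0.043 without WT replicate 2 (range -0.043 to 0.21). With 3 against 3 libraries no ratio can pass the threshold. The depth behind the FPKM is unknown, and peaks have 1 list per genotype, so their errors could not be given.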
